A study of Mus musculus with 4 samples.

Results

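Collagens are the main fibrous proteins of the extracellular matrix, and each collagen is a trimer of alpha chains encoded by Col genes. The chains were taken as the protein-coding genes of the deposited table whose symbol is Col, a number, the letter a and a number, without Col4a1 and Col4a2, which gave 42 genes of 46603 gene IDs. They fall into 11 fibrillar chains, 7 network-forming chains, 9 fibril-associated chains, 4 transmembrane chains and 11 chains of other types (VI, VII, XV, XVIII, XXVI and XXVIII). Fibrillar collagens (types I, II, III, V, XI, XXIV and XXVII) form the ropes of connective tissue and cartilage, network collagens form sheets, fibril-associated collagens sit on the surface of the ropes, and transmembrane collagens stay anchored in the cell membrane. Fibroblasts are the classical producers of types I, III, V and VI, whereas pluripotent cells and endoderm are better known for basement membrane components.

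RNA came from mouse embryonic stem cells that lack both forms of glycogen synthase kinase 3 (Gsk3a-/-;Gsk3b-/-, 2 biological replicates) and from wild-type cells (2 biological replicates). All 4 cultures grew on gelatin and irradiated mouse embryonic fibroblasts, with serum and leukaemia inhibitory factor, so feeder RNA can be present in both genotypes. Day 16 of embryonic development is given in the sample labels and another number in the series' design text, which could also be a line's name, so the age is uncertain. The making of the alleles is not described there. The table sets a group B against a group A. Which genotype is group B is stated nowhere in the header or labels, so no genotype is assigned, and log2 ratios are of group B over group A.

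The table gives the authors' mean normalized count per group, which is a read count divided by a size factor of the library and averaged over the 2 libraries of the group. Because a mean of 2 whole-number counts keeps both steps, the counts of the single libraries could be recovered, and these are called B1, B2, A1 and A2 without any link to the replicate numbers of the labels. Library totals ranged from 112655210 to 146326307 counts, so that counting error is small for all but the rarest chains. Of the targeted genes, Gsk3a had normalized counts of 1697 in B1 and 1347 in B2, against 6353 in A1 and 7104 in A2, while Gsk3b had 5051 and 5002 in group B and 5438 and 6285 in group A. In the authors' deposited table the log2 ratio was -2.14 for Gsk3a (adjusted p 4.9e-24) and -0.22 for Gsk3b (adjusted p 0.984). A gene was called where the adjusted p in the authors' deposited table was under 0.05. Pluripotency markers were abundant in every library, with Pou5f1, the core factor Oct4, between 93404 and 125786 normalized counts. Over all genes with a count 3.46% were called, and 52.5% of genes averaging 10 or more had groups that did not overlap, in either direction. Of 10 pluripotency markers 2 were called lower in group B, Utf1 (23994 and 23047 normalized counts in B1 and B2, against 42044 and 52142 in A1 and A2) and Fgf4 (8686 and 5655 in group B, against 14118 and 14819 in group A). Both B libraries were lower for 7 of these 10 markers and higher for 0. Of 10 macrophage markers, given as cells a feeder culture could hold, 3 were called higher, Lyz2, Fcgr1 and Ptprc, with log2 ratios of 2.13, 3.39 and 2.57 in the authors' deposited table. Both B libraries were higher for 8 of the 10 and lower for 2, beside the 52.5% of all genes, and the median log2 ratio was 1.64. The most abundant, Cd68, was one of those 2, with 2128 and 1960 normalized counts in B1 and B2, against 2748 and 2458 in A1 and A2, and it carries most of the list's sums of 3552 and 3909 in group B, against 3329 and 2964 in group A.

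Counts were present for 40 of the 42 chains, and 38 had a mean normalized count of at least 10. Col4a3 and Col19a1 were below that level, with 8 and 7 counts of Col4a3 in B1 and B2 and 2 and 4 in A1 and A2, and 2 and 1 counts of Col19a1 in B1 and B2 and 5 and 8 in A1 and A2. The basement membrane chains Col4a5 and Col4a6 were listed at 0 in every library. Both lie on chromosome X, where the table lists all 941 protein-coding genes at 0, among them the housekeeping genes Hprt and Pgk1, whereas 11.0% of 20573 autosomal protein-coding genes are at 0. The 0 of these 2 chains is therefore shared with the whole chromosome and gives no level for them.

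Between the groups, 1 chain rose and 1 fell in group B, and 36 of the 38 chains with a mean of at least 10 did not pass. Col27a1 rose and Col6a4 fell. Of 30237 genes with a count in the whole table, 3.46% passed, 1.54% higher and 1.92% lower, so 2 called members of 40 are close to the background. An unadjusted p under 0.05 was found for 5 of the 40 chains in the authors' deposited table, against 10.5% of all genes, and for 6 of the 38 in limma, against 20.7%. The median log2 fold change of the 38 chains was 0.14, beside 0.01 for the 20465 genes averaging 10 or more. B1 and B2 did not overlap A1 and A2 for 10 chains, 6 higher and 4 lower, against 52.5% of all genes averaging 10 or more.

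Col27a1 (ENSMUSG00000045672, mm10 chromosome 4, 63214004 to 63334991) encodes the chain of type XXVII collagen, a fibrillar collagen of developing cartilage and other embryonic tissues. It had normalized counts of 2467 in B1 and 1668 in B2, against 529.7 in A1 and 620.0 in A2. Both B libraries stood far above both A libraries, and B1, the library with the least of most other fibrillar chains, had the most Col27a1. The authors' deposited table lists it as 3.60-fold up (log2 ratio 1.85, adjusted p 0.00243). Limma put the log2 ratio at 1.82 (SE 0.23, adjusted p = 0.0318), and it stayed between 1.54 and 2.10 when any 1 library was left out. Limma called it without B1 (adjusted p = 0.0210) or B2 (0.00616) and not without A1 (0.187) or A2 (0.312), where it called 0 genes of the table, with 2420 and 2034 under an unadjusted p of 0.05.

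Col6a4 (ENSMUSG00000032572, chromosome 9, 105989454 to 106096783) encodes the alpha 4 chain of type VI collagen, which forms beaded filaments around cells. Its normalized counts were 249.4 in B1 and 296.8 in B2, against 496.5 in A1 and 640.7 in A2. All B values were below all A values, and the libraries of a group differed little. It fell by 1.06 on the log2 scale, with adjusted p 0.00352, in the authors' deposited table. Limma gave -1.05 (SE 0.23, adjusted p = 0.0808), which misses the threshold, with values of -1.23 to -0.87 when 1 library was left out and adjusted p values of 0.0565 to 0.497. Exons of genes on the opposite strand overlap 3.39% of its exon bases, and whether reads were counted by strand is not stated in the labels.

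The chain closest to the threshold from outside was Col5a3, the alpha 3 chain of type V collagen, which regulates fibril diameter. It had 426.3 and 774.4 normalized counts in B1 and B2, against 1126 and 1082 in A1 and A2. Both B libraries were lower, but B1 and B2 differed 1.82-fold between themselves. Its log2 ratio was -0.88 and its adjusted p 0.0563 in the authors' deposited table. Limma called it lower without B2 (-1.37, adjusted p = 0.0180) and not without B1 (-0.51, adjusted p = 0.171).

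The promoters of the 2 called chains are shown beside those of Col1a2 and Col3a1, abundant chains that differed between the libraries of a group instead. Each is the 250 bases before the gene's start in RefSeq (GRCm38.p6), read 5′ to 3′ on the gene's strand. Starts in GENCODE can differ from these. Capitals mark matches on either strand to CCAAT, to the GC box GGGCGG, to the TATA-box letters TATAAA or to ATCAAAG, a core sequence recognised by TCF/LEF factors of Wnt signalling.
Col27a1 (chr4:63215162-63215411, + strand): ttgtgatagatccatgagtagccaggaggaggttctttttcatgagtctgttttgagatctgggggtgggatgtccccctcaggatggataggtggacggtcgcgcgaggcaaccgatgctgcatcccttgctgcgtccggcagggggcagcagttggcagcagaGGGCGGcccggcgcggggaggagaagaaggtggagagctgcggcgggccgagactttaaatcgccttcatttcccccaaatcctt
Col6a4 (chr9:106096692-106096941, - strand): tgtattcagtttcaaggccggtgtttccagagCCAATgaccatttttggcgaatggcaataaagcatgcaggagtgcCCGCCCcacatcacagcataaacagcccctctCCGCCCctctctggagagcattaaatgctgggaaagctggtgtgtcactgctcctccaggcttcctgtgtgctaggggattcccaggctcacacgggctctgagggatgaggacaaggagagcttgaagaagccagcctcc
Col1a2 (chr6:4505368-4505617, + strand): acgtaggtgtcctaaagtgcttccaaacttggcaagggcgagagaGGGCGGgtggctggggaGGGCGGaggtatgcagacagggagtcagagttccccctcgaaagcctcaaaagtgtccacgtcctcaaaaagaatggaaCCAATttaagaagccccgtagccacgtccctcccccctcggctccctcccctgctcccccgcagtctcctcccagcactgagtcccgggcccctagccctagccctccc
Col3a1 (chr1:45311288-45311537, + strand): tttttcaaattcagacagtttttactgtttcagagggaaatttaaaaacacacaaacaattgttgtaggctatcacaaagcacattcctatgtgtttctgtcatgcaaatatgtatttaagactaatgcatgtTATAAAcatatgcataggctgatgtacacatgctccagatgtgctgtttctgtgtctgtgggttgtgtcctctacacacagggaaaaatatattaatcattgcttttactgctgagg

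Col27a1 held 1 GC box, 85 bases before the start. Col6a4 held CCAAT 218 bases before the start and 2 GC boxes on the other strand, at 173 and 141 bases. Col1a2 held CCAAT at 109 bases and 2 GC boxes at 205 and 188 bases, and the Col3a1 window held TATAAA alone, at 117 bases. RefSeq windows were found for 33 of the 42 chains, 36 windows in all, and 21 of them (58.3%) held a GC box, against 32.7% of the 32851 windows of all genes. CCAAT was present in 11 of the 36 (30.6%, against 33.8% of all windows), TATAAA in 5 (13.9%, against 12.4%) and ATCAAAG in 1, that of Col9a2 (2.78%, against 3.21%). These shares describe letters in the windows and say nothing of which factor binds.

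**Figure D1:**
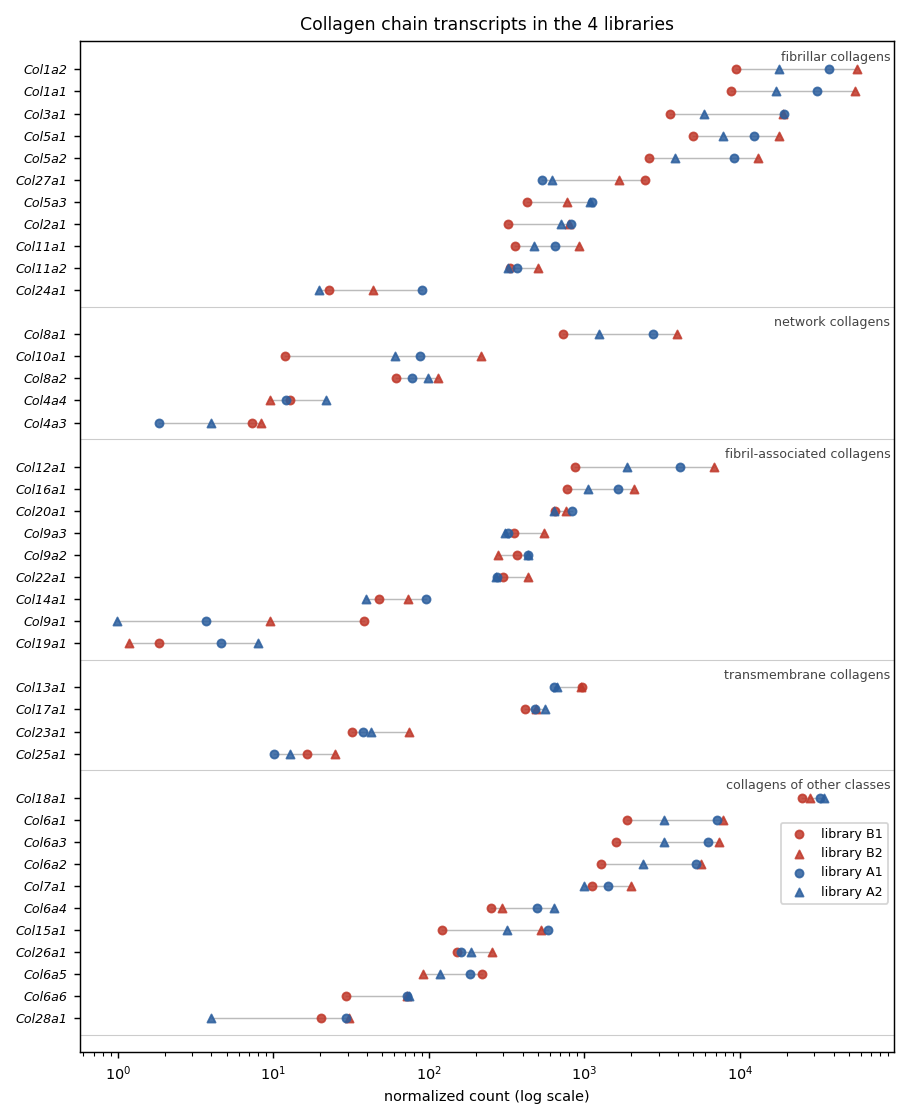
Normalized counts (log scale) of the 40 chains with a count in libraries B1 and B2 (red) and A1 and A2 (blue), by collagen class and, within a class, by mean level, with a grey line from the lowest to the highest library. Most abundant fibrillar chains and Col6a1 to Col6a3 run from B1 at the low end to B2 or A1 at the high end, whereas Col27a1 and Col6a4 separate by group and Col18a1 varies little.

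For most abundant chains the 2 libraries of a group differed more than the 2 groups. The major chains of connective tissue fibrils, Col1a1 and Col1a2 of type I and Col3a1 of type III, varied 5.38-fold to 6.28-fold between B2 and B1. Of the 38 chains, 17 were at least 2-fold higher in B2 than in B1, against 6.42% of all genes averaging 10 or more, and 11 were at least 2-fold higher in A1 than in A2, against 4.17%. Both held for 7 chains, against 1.29% of all genes. The full order B2, A1, A2, B1 from high to low was found for 12 chains, against 3.89% of all genes, and 23 chains had their lowest value in B1. These ratios set 1 library against another, so they have no test. The libraries of a group have no order of their own, and the order counted here is that of Col1a1 and Col1a2. The shares of all genes therefore describe the pattern in these chains and do not test it.

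Col1a1 (ENSMUSG00000001506, chromosome 11, 94936224 to 94953042), the alpha 1 chain of type I collagen, had normalized counts of 8757 in B1 and 55013 in B2, against 31482 in A1 and 17177 in A2. Col1a2 (ENSMUSG00000029661, chromosome 6, 4504814 to 4541544), its partner chain, had 9468 and 56892 in group B, against 37638 and 17900 in group A. The B libraries thus enclosed both A libraries for each chain of type I. The authors' deposited table lists log2 ratios of 0.39 for Col1a1 and 0.26 for Col1a2, both at an adjusted p of 1. Without B2 the limma value of Col1a1 was -1.41 (adjusted p = 0.0569) and without B1 it was 1.24 (0.0824), so the direction depended on which B library was kept.

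Col3a1 (chromosome 1, 45311538 to 45349706), the chain of type III collagen in soft tissues, had 3529 and 19001 normalized counts in B1 and B2, against 19209 and 5874 in A1 and A2. Here A1 was as high as B2, and the 3.27-fold difference between A1 and A2 was the widest of the abundant fibrillar chains. Col5a1, which nucleates type I fibrils, had 5001 and 17864 in group B, against 12367 and 7724 in group A. Col5a2, a neighbour of Col3a1 at a distance of 24615 bases on the opposite strand and named after its values were seen, had 2600.0 and 13140 in group B, against 9184 and 3839 in group A. The authors' deposited table lists for these 3 chains log2 ratios between -0.15 and 0.27, all at an adjusted p of 1.

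The rarer fibrillar chains were less alike. Col2a1, Col11a1 and Col11a2, the fibrillar chains of cartilage, had between 324.5 and 917.5 normalized counts in group B and between 322.3 and 816.2 in group A, and none was called. For each of the 3 the B1 value was below the B2 value, by 1.51-fold to 2.55-fold. Limma without B2 called Col2a1 lower (adjusted p = 0.0340), and without B1 it did not. Col24a1, a minor fibrillar chain, ranged from 19.8 to 90.3 normalized counts. Of the 8 chondrocyte markers set beside these chains, 1 was called, against 3.46% of all genes. The called marker was Acan, the large cartilage proteoglycan, lower in group B (232.9 and 147.8 in B1 and B2, against 400.7 and 336.2 in A1 and A2), and it did not pass in limma (adjusted p = 0.143). Comp, a cartilage matrix protein, lay the other way without being called (179.7 and 117.0 in B1 and B2, against 59.9 and 61.3 in A1 and A2, log2 ratio 1.29, adjusted p 0.0743 in the authors' deposited table). Sox9, a regulator of cartilage genes, had 80.7 and 157.2 in group B and 96.7 and 60.3 in group A.

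**Figure D2:**
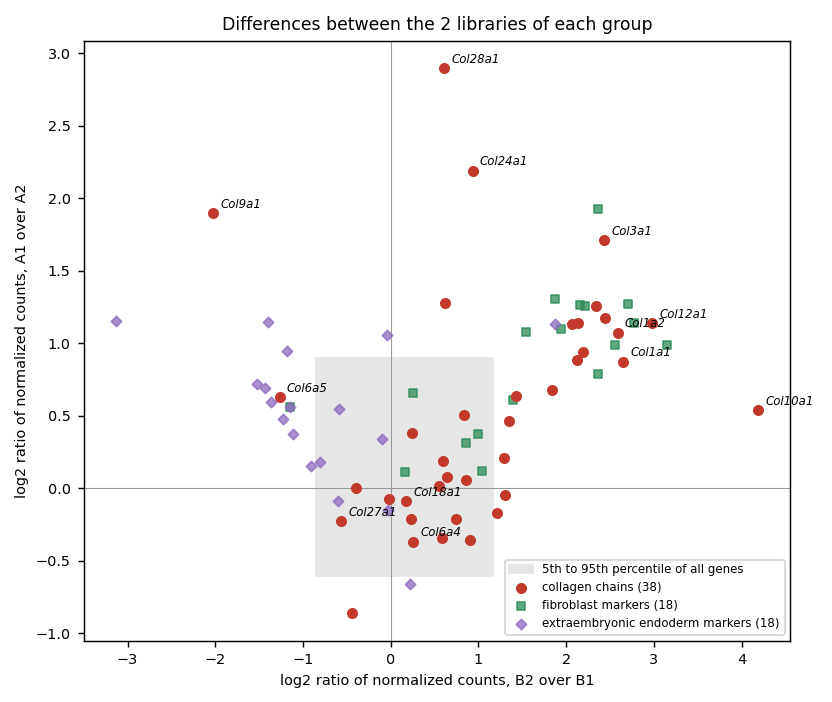
Log2 ratio of normalized counts between the libraries of a group, B2 over B1 (horizontal) and A1 over A2 (vertical), for the 38 collagen chains, 18 fibroblast markers and 18 extraembryonic endoderm markers with a mean of at least 10; the grey box spans the 5th to 95th percentile of all genes on each axis. Type I, III and XII chains lie among the fibroblast markers at the upper right, endoderm markers lie mostly to the left, and Col27a1, Col18a1 and Col6a4 lie near the centre.

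Markers of fibroblasts, the feeder cell type, followed the same order of libraries. Of 18 fibroblast markers 12 had the order B2, A1, A2, B1, 13 were at least 2-fold higher in B2 than in B1, and 8 of these also in A1 over A2. Their summed normalized count was 55208 in B1 and 125101 in B2, against 102480 in A1 and 65537 in A2, and without Vim and Pdgfra, which stem cells or endoderm also express, it was 25122 and 77584 in group B and 57055 and 30567 in group A. Postn, a matrix protein of fibroblasts, had 944.3 and 6162 in B1 and B2, against 4374 and 1814 in A1 and A2. No marker of the list was at 0 in any library, and 1 was called, against 3.46% of all genes. The called marker was Fbln1, a matrix glycoprotein, which was higher in group B by 0.73 on the log2 scale (authors' deposited table, adjusted p 0.00463). The summed count of the 42 collagen chains was 70476 in B1 and 235514 in B2, against 179385 in A1 and 108926 in A2. The part of fibroblast RNA in the collagen levels was not tested, and in bulk RNA fewer cells of a type and less RNA per cell cannot be told apart.

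Type VI collagen showed both patterns within 1 family. Col6a1, Col6a2 and Col6a3, the 3 chains of the common type VI trimer, had 1866, 1275 and 1602 normalized counts in B1 and 7790, 5603 and 7302 in B2, against 7145, 5209 and 6222 in A1 and 3254, 2369 and 3245 in A2. They moved together across the libraries in the order of the fibroblast markers, with no call and log2 ratios of -0.14 to -0.09 in the authors' deposited table. Per kilobase of merged exons, Col6a1 had 2.78 and 2.64 times the level of Col6a2 in B1 and B2, against 2.61 in A1 and A2. With the longest coding transcript as the length the ratio was 1.41 and 1.34 in group B, against 1.32 in A1 and A2. Its size depends on the length used, but it held across libraries while the level of the chains varied over 4-fold. Col6a4, Col6a5 and Col6a6 lie next to each other on chromosome 9 on the same strand, with gaps of 28811 and 27918 bases, and encode chains that can take the place of Col6a3. Unlike Col6a4, Col6a5 had 219.1 and 91.0 in B1 and B2, against 183.3 and 118.7 in A1 and A2, and Col6a6 had 29.3 and 72.1 in group B, against 71.9 and 74.2 in group A, so the groups overlapped for both.

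Col18a1 (ENSMUSG00000001435, chromosome 10, 77052178 to 77166548) was the most even of the abundant chains. It encodes type XVIII collagen, a basement membrane collagen with heparan sulphate chains and the source of endostatin. Normalized counts were 24912 in B1 and 28098 in B2, against 32587 in A1 and 34681 in A2. Both B libraries were lower by a small margin, and the authors' deposited table lists a log2 ratio of -0.34 at an adjusted p of 0.471. Col18a1 made up 35.3% of all collagen normalized counts in B1 and 11.9% in B2, against 18.2% in A1 and 31.8% in A2, while the type I chains together made up 25.9% in B1 and 47.5% in B2, against 38.5% in A1 and 32.2% in A2. Per kilobase of merged exons Col18a1 and Col1a1 had equal mean levels of 4283 each over the 4 libraries, but Col1a1 ranged from 1334 in B1 to 8382 in B2 with 4797 in A1 and 2617 in A2, and Col18a1 only from 3548 and 4002 in group B to 4641 and 4940 in group A. With the length of the longest coding transcript instead, the highest mean level per kilobase was that of Col1a2 (5698), ahead of Col18a1 (5374) and Col1a1 (4740).

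The remaining chains of this mixed class were not called. Col7a1, which forms the anchoring fibrils below epithelia, had 1117 and 1986 normalized counts in B1 and B2, against 1409 and 994.7 in A1 and A2. Col15a1, a relative of Col18a1, had 121.0 and 527.3 in group B, against 585.0 and 316.4 in group A, again lowest in B1. Col26a1 ranged from 152.2 to 255.4 and Col28a1 from 3.96 to 30.7 over the 4 libraries, and the groups overlapped for both. These 4 were named after their values were seen.

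Network collagens had 0 called members, against 3.46% of all genes, and 0 under an unadjusted p of 0.05. These were 5 chains in the authors' test (10.5% of all genes) and 4 in limma (20.7%), which did not include Col4a3. With so few chains, counts of 0 do not set the class apart. Col8a1, a chain of type VIII collagen found around vessels and in the cornea, had 727.9 and 3959 normalized counts in B1 and B2, against 2777 and 1232 in A1 and A2. Col10a1, the type X collagen of hypertrophic cartilage, had 11.9 and 217.5 in group B, against 87.5 and 60.3 in group A, an 18.3-fold difference between B2 and B1 and the widest of the 38 chains. Its log2 ratio was 0.63 by means in the authors' deposited table and -0.47 in limma, which averages logarithms (adjusted p = 0.878). Both had the order of the fibroblast markers. Col8a2, the partner of Col8a1, had 61.4 and 114.7 in group B, against 77.4 and 98.9 in group A, and did not share that order. Col4a4, a chain of specialised basement membranes whose start lies 72 bases from that of Col4a3 on the opposite strand, had 12.8 and 9.46 in group B, against 12.0 and 21.8 in group A.

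Fibril-associated collagens likewise had 0 of 9 members called, against 3.46% of all genes. Under an unadjusted p of 0.05 were 0 in the authors' test and 1 of the 8 in limma (10.5% and 20.7% of all genes). These counts do not set the class apart. The 2 most abundant chains varied within groups. Col12a1, which coats type I fibrils, had 864.5 and 6827 normalized counts in B1 and B2, against 4113 and 1866 in A1 and A2. Col16a1 had 770.1 and 2075 in group B, against 1634 and 1050.1 in group A. For these chains B2 was the highest and B1 the lowest library.

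Col20a1 was even, with 644.5 and 761.4 in group B, against 829.1 and 636.8 in group A. The chains of type IX collagen, which lines cartilage fibrils, differed from each other. Col9a3, of whose exon bases 6.07% overlap Tcfl5 on the opposite strand, had 351.1 and 547.4 in group B, against 323.3 and 306.5 in group A (authors' deposited table, log2 ratio 0.51, adjusted p 0.940), and Col9a2 had 366.7 and 277.8 in group B, against 433.0 and 432.1 in group A (authors' deposited table, log2 ratio -0.42, adjusted p 0.740). Both were separate between groups without being called, in opposite directions. Col9a1, named after its values were seen, had 42 and 8 counts in B1 and B2, against 4 and 1 counts in A1 and A2, and the log2 ratio of 3.36 that the authors' deposited table lists had an adjusted p of 0.624. Its neighbour Col19a1, which lies 9206 bases away on the opposite strand, was lower in both B libraries at the counts given above. Of the others, Col22a1 had 298.0 and 436.3 in group B against 272.7 and 269.9 in group A, and Col14a1 ranged from 39.6 to 95.8 over the 4 libraries.

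Transmembrane collagens had 0 of 4 members called, with 1 of 4 under an unadjusted p of 0.05 in the authors' test and in limma (10.5% and 20.7% of all genes), and 1 of 4 was at least 2-fold higher in B2 than in B1. Col13a1, a chain at sites of cell adhesion, had 960.8 and 950.6 normalized counts in B1 and B2, against 633.8 and 668.4 in A1 and A2. Its libraries agreed within each group and separated between groups, but its log2 ratio of 0.55 missed the threshold in the authors' deposited table (adjusted p 0.183) and in limma (SE 0.16, adjusted p = 0.134). Col17a1, the hemidesmosome collagen, had 414.4 and 485.9 in group B, against 479.0 and 555.7 in group A. Col23a1 had 32.1 and 74.5 in group B, against 37.8 and 42.5 in group A. Col25a1 had 16.5 and 24.8 in group B, against 10.1 and 12.9 in group A, at a level where 11 to 21 counts were behind each value. None of the 3 passed.

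**Figure D3:**
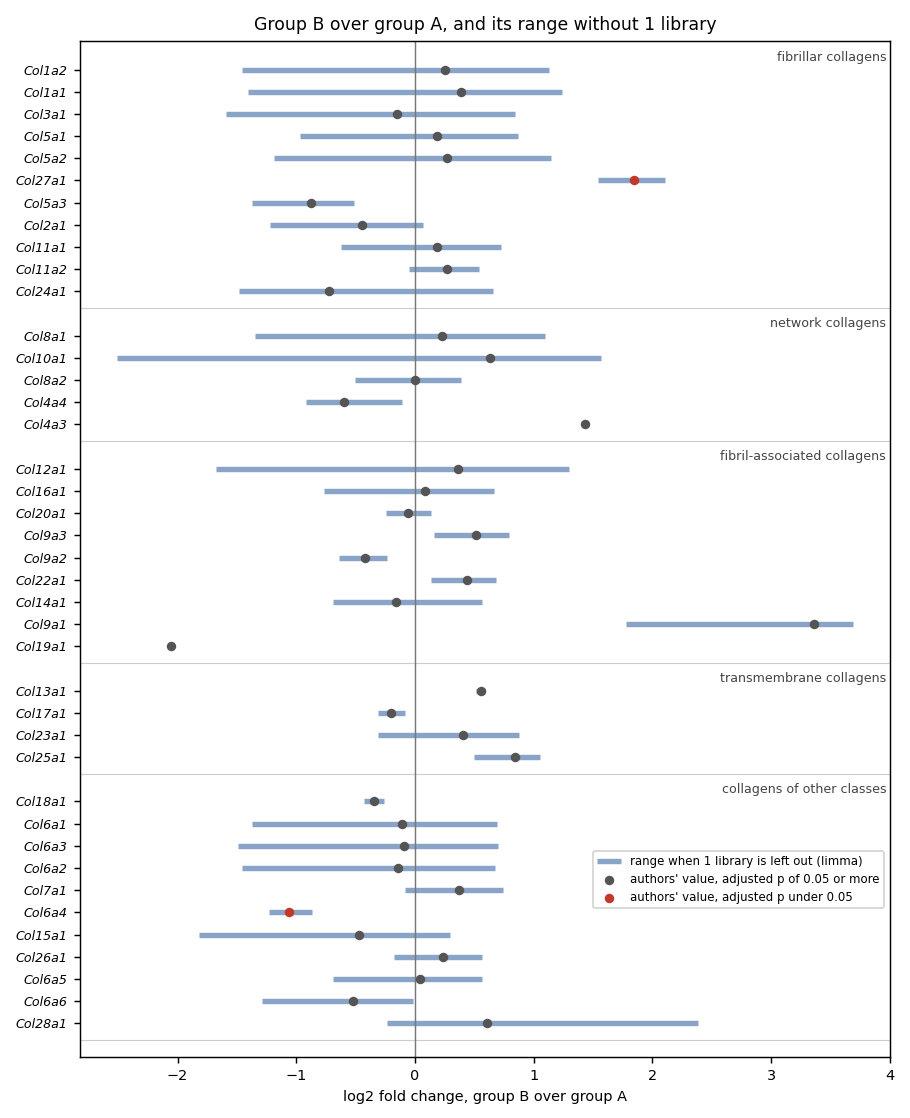
Log2 fold change of group B over group A for the 40 chains with a count, from the authors' table (points, red where called), with the range of the limma value when any 1 of the 4 libraries is left out (blue bars, the 38 chains with a mean of at least 10). Bars of 25 chains cross 0, and those of Col27a1, at 1.54 to 2.10, and Col6a4, at -1.23 to -0.87, do not.

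Leaving out 1 library at a time changed the direction of 25 of the 38 chains, 9 of them fibrillar, against 36.4% of all genes averaging 10 or more. In 23 chains the limma value was above 0 without B1 and below 0 without B2, and in 1 chain, Col6a5, it was the other way round. The 13 chains that kept their direction included Col27a1, Col9a1, Col9a3, Col22a1, Col13a1 and Col25a1, which were higher in group B, and Col6a4, Col5a3, Col9a2 and Col18a1, which were lower. The median log2 ratio of the fibrillar chains was 0.19 with all 4 libraries, 0.71 without B1 and -1.26 without B2, whereas that of the transmembrane chains was 0.48, 0.72 without B1 and 0.10 without B2. Limma called Col27a1 alone with all 4 libraries (2.01% of 20465 genes were called). It called Col27a1 alone without B1 (4.87% of genes), and without B2 (5.43% of genes) it called Col27a1 higher and Col5a3, Col2a1 and Col10a1 lower.

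The chains of type I and of the common type VI trimer kept their proportions across the libraries, and those of types V, VIII, IX and XI varied more. The level of Col1a1 per kilobase of merged exons was 1.75 and 1.83 times that of Col1a2 in B1 and B2, against 1.58 and 1.82 in A1 and A2. With the longest coding transcript as the length the ratio was 0.83 and 0.87 in group B, against 0.75 and 0.87 in group A, so the size of this ratio depends on the length used and its evenness does not. By longest coding transcript, the ratio of Col1a1 to Col3a1 was 2.33 and 2.72 in group B, against 1.54 and 2.74 in group A. Per kilobase of merged exons it was 3.71 and 4.33, against 2.45 and 4.37, and the ratios that follow use merged exons. Col8a1 had 6.79 and 19.8 times the level of Col8a2 in group B, against 20.6 and 7.14 in group A, although both chains belong to type VIII. The ratio of Col5a1 to Col5a2 was 2.17 and 1.54 in group B, against 1.52 and 2.27 in group A. That of Col9a3 to Col9a2 was 0.77 and 1.58, against 0.60 and 0.57, and that of Col11a1 to Col11a2 was 0.58 and 0.99, against 0.95 and 0.79.

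The enzymes and chaperones that make collagen in the endoplasmic reticulum mostly did not follow the order of the type I chains, which 2 of 21 had. Of these 21 genes, 2 rose in group B, 0 fell and 19 did not pass, with a median log2 fold change of 0.36. Over all genes 3.46% were called. An unadjusted p under 0.05 was found for 8 of the 21 in the authors' deposited table, against 10.5% of all genes. In limma it was found for 10 of the 21, against 20.7%. Serpinh1, the collagen chaperone HSP47, had 51891 and 36747 normalized counts in B1 and B2, against 20310 and 15227 in A1 and A2 (authors' deposited table, log2 ratio 1.32, adjusted p 0.0167). Plod1, which hydroxylates collagen lysines, had 12266 and 9199 in group B, against 5424 and 5446 in group A (log2 ratio 0.98, adjusted p 0.0124 in the authors' deposited table). Both passed in limma too, with adjusted p values of 0.0456 and 0.0479, and both were highest in B1, the library with the least type I collagen RNA.

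P4ha2, a prolyl hydroxylase subunit, had 13421 and 6931 in group B, against 3840 and 4077 in group A (authors' deposited table, log2 ratio 1.36, adjusted p 0.409) and is given here after its values were seen. For 13 of the 21 genes B1 and B2 both exceeded A1 and A2, and for 1 both were below, against 52.5% of all genes in either direction. Extraembryonic endoderm markers were also highest in B1, with a summed normalized count of 389665 in B1 and 240357 in B2, against 183655 in A1 and 162045 in A2. Of these 19 markers, 18 had a mean of at least 10, with a median log2 ratio of 0.96. Among the 18, 10 were higher in both B libraries and 1, Ttr, was lower, against 52.5% of all genes in either direction. Of the 19, 0 were called and 9 had an unadjusted p under 0.05 in the authors' deposited table (10.5% of all genes). Afp was at 0 in B2 and A2. Limma called 4 higher, Gata6, Sox17, Pdgfra and Lama1, where it called 2.01% of all genes. Their log2 ratios in the authors' deposited table were 3.20, 3.50, 2.60 and 1.88, and that of Ttr was -2.46 at 3 to 29 counts. The endoderm markers with the highest means were Sparc, with 100802 and 66874 in B1 and B2, against 53013 and 36217 in A1 and A2, and Lamc1, with 75368 and 49677 in group B, against 52792 and 56177 in group A. The part of endoderm cells in the enzyme levels was not tested.

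**Figure D4:**
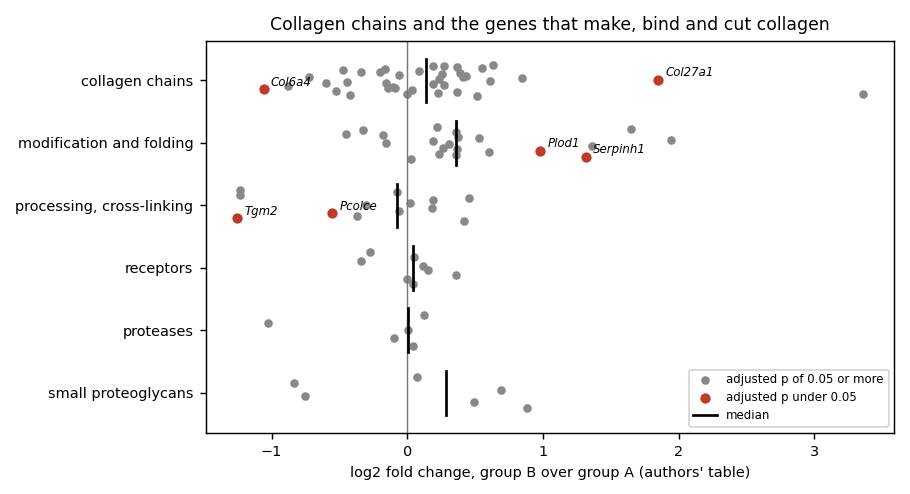
Log2 fold change of group B over group A in the authors' table for the collagen chains and 5 lists of genes that modify, process, bind or cut collagen, for members with a mean of at least 10; red points are called, and the black bar is the median. Serpinh1 and Plod1 lie to the right and Tgm2 and Pcolce to the left, while no receptor, protease or small proteoglycan is called.

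Among 14 genes of procollagen processing and cross-linking, 0 rose and 2 fell in group B, where 3.46% of all genes were called in either direction. Tgm2, a transglutaminase that cross-links matrix proteins, had 2313 and 2446 normalized counts in B1 and B2, against 4783 and 6554 in A1 and A2 (authors' deposited table, log2 ratio -1.25, adjusted p 0.00645). Pcolce, which enhances removal of the procollagen propeptide, had 10217 and 13316 in group B, against 17315 and 17211 in group A (authors' deposited table, log2 ratio -0.55, adjusted p 0.0433), and did not pass in limma (adjusted p = 0.105). The cross-linking enzyme Lox had 1276 and 8036 in group B, against 5664 and 2488 in group A, in the same order as Col1a1 and Col1a2.

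Of the genes that bind or cut collagen, 0 of 10 receptors, 0 of 6 proteases and 0 of 8 small proteoglycans passed. Over all genes 3.46% were called. The protease Mmp8 and the proteoglycan Bgn were at 0 and had no test. An unadjusted p under 0.05 was found for 0 in the authors' test, against 10.5% of all genes. Among those averaging 10 or more it was found for 0 in limma, against 20.7%. The lists had median log2 fold changes of 0.05, 0.00 and 0.28, where 8, 5 and 6 members had a mean of at least 10. Itgb1, the beta subunit shared by the collagen-binding integrins, had 17856 and 23834 in B1 and B2, against 22477 and 19236 in A1 and A2. Ddr1, a receptor tyrosine kinase for collagen, had 3176 and 3388 in group B, against 3919 and 4038 in group A. Mmp14 and Mmp2, proteases that act on collagen, had log2 ratios of 0.00 and -0.09 in the authors' deposited table. Dcn, which binds type I fibrils, had 109.1 and 371.2 in group B, against 634.7 and 222.5 in group A, and Aspn, a related proteoglycan, had 71.5 and 406.7 in group B, against 326.1 and 128.5 in group A. For both, B1 was the lowest library. Bgn of the same family was listed at 0 with the rest of chromosome X.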

How the data were processed

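Per the labels' protocols, TRIzol was used for extraction and stranded TruSeq polyA libraries were made from 2 samples of each genotype. The submitters' processing notes name STAR, DESeq and mm10, with no version. How reads were counted, with which strand setting and annotation, is not stated in the labels. The deposited levels are the authors' mean normalized counts (baseMean columns, per the file headers), with the authors' fold change (ratio) and log2 fold change of group B over group A, p-value and adjusted p-value. The table has 46608 rows, of which 5 repeat a gene ID and were used once.

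From these, the 2 counts behind each group mean were recovered as whole numbers within a tolerance of 1e-06, for 28616 genes in group A and 28353 in group B. At this tolerance the pair was not unique in 1700 genes (A) and 5 genes (B). There the closest was taken, the runner-up being 20.5 or more times as far from whole. The recovered counts gave back the steps as median-of-ratios size factors within 1.55e-15. The authors' adjusted p under 0.05 was the test, as single-sample values are not in the table. As an alternative limma 3.58.1 (R 4.3.3) with a mean-variance trend was fitted to log2(normalized count + 1) for the 20465 genes averaging 10 or more, with Benjamini-Hochberg adjusted p-values from its two-sided test. Its fold changes understate those of low genes, and p-values rest on 2 libraries per group. Positions and merged exon lengths came from GENCODE M21 (mm10), which matched all 42 chains.

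The members and gene lists were chosen with earlier results of these data known. Values in every library are given for called chains, for the 4 with the highest mean per class, and for those with a mean of at least 50, a log2 fold change of at least 1 in size and separate groups; from other lists up to 6 called members, or the 2 with the highest mean, were named. Additional genes named beside these (among them Pou5f1, Cd68, Comp, Sox9, Postn and Lox) were chosen after their values were seen. Alternatives were other thresholds, pseudocounts of 0.5 and 5, other minimum means, library totals and leaving out each library. Protein sequences were not used here.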

Additional observations from a re-analysis of the deposited data

How the results depend on the processing

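No paired analysis was possible because the recovered libraries carry no replicate number. Called chains: 1 chain was higher under every limma setting with all libraries and 0 to 1 when 1 library was left out (0 without A1 and 0 without A2, where limma called 0 genes of the whole table and 5 and 2 of 38 chains had an unadjusted p under 0.05, against 11.8% and 9.94% of all genes). For lower chains the authors' threshold at 0.1 gave 2, and limma gave 0 (6 of 38 chains had an unadjusted p under 0.05, against 20.7% of all genes) at each of its settings with all libraries (no filter, a mean of at least 50, pseudocounts of 0.5 and 5, library totals) and 0 to 3 when 1 library was left out. Over all genes limma called 200 higher and 211 lower, against 466 and 581 in the authors' deposited table; the counts were 211 and 201 without a filter, 214 and 225 with a mean of at least 50, 193 and 204 with a pseudocount of 0.5, 244 and 251 with 5, 208 and 240 with library totals, and 0 to 551 higher and 0 to 560 lower when 1 library was left out. Median log2 fold changes without 1 library ranged from -0.58 to 0.59 for all chains, -1.26 to 0.75 for fibrillar, -0.99 to 0.68 for network, -0.21 to 0.66 for fibril-associated, 0.10 to 0.72 for transmembrane and -1.19 to 0.56 for other chains, the lowest without B2 in each class; a filter, pseudocount or library totals moved none of them by more than the spread between libraries. In limma the other lists had 1 lower processing gene, 2 higher fibroblast markers (Fbln1 and Pdgfra) and 4 higher endoderm markers (Pdgfra again). They also had 1 higher macrophage marker (3 by the authors' test), 1 lower pluripotency marker (2 by the authors' test) and 0 lower chondrocyte markers. The median log2 ratio of B2 over B1 was 0.88, and 1.10 with a mean of at least 50. Per kilobase of the longest coding transcript, Col18a1 had 5374 and Col1a2 5698, against 4283 and 2452 per kilobase of merged exons; this length and the last filter were chosen after seeing the data. With 1 library left out, the lone library of a group is assumed to vary like the pair of the other group. For single chains 189 of the other values moved by less than the spread between libraries and kept their call, 29 moved by more, 8 (of Col27a1 and Col6a4) lost the call and 2 (Col5a3 and Col2a1 without B2) gained one, and Col10a1, called lower without B2, turned its direction; the cause was not tested. Leaving out 1 library cannot move a limma value by more than this spread between libraries from its value with all libraries. For those fits, staying within the spread is therefore no sign of stability. The direction of 25 of the 38 chains changed when 1 library was left out. Depth limits Col4a3, Col19a1, Col9a1 and Col25a1, which had few counts.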
